A study of Mus musculus with 20 samples.

Results

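Among the 20 polyA RNA-seq libraries of mouse epididymal white fat (eWAT, the fat pad that lies against the epididymis), 10 carry a Yes and 10 a No in the submitters' label for spermatocyte contamination, and the libraries marked Yes were compared here with those marked No. The label does not say how contamination was judged. If it was judged from these same libraries, the difference described here is not independent of it. Of the libraries marked Yes, 7 came from mice on the control diet (called Control below) and 3 from mice under random food restriction (called Restricted), a regime of intermittent fasting joined with 5% less calories. Of those marked No, 3 were Control and 7 Restricted, so diet was a term in each fit over both diets. Strain and age are not given in the labels used here. The labels number the libraries of each diet without saying that each came from a separate animal, and the p-values therefore cover only the variation among the libraries at hand, which may be technical. The label for RNA extraction names QUAD where the tissue label says eWAT.

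Sperm made in the testis pass through the efferent ducts into the epididymis, a long coiled tube whose segments secrete different proteins into the lumen, and from there into the vas deferens. The efferent ducts are lined by multiciliated cells, which carry many motile cilia and stir the fluid, and by absorptive cells with a brush border, which take up most of the fluid and protein leaving the testis. Like the epididymis and the kidney tubules, they come from embryonic tissue patterned by Pax2, Pax8 and Lhx1, and they lie close to the fat pad that was sampled. A sperm tail and a motile cilium share most parts of the axoneme, the microtubule core that bends, so genes of the axoneme alone do not separate germ cells from multiciliated cells.

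Libraries held 14306528 to 44061508 counts, with a mean of 23933900 ± 6909333 (SD, n = 10) in those marked Yes and 25480718 ± 7752912 (SD, n = 10) in those marked No. RNA integrity numbers, where given, were 7.23 ± 0.291 (SD, n = 10) and 7.40 ± 0.416 (SD, n = 7). Levels are given as CPM (counts scaled to a common library total), and they compare libraries, not genes with each other. The sampled tissue showed its own markers: Adipoq, which encodes the fat hormone adiponectin, was at 2991 to 4365 CPM in libraries marked Yes and at 3672 to 4990 CPM in those marked No. Much skeletal muscle RNA was found in Restricted 1 and in Control 1, 2, 3, 4 and 5. Control 3 is marked No and the other 5 of these 6 are marked Yes.

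Across 17105 genes that passed the filter on low counts, 975 were higher in libraries marked Yes (5.7% of the tested genes) and 69 were lower (0.403%), by edgeR's quasi-likelihood test with diet as a term and a Benjamini-Hochberg adjusted p under 0.05. Together these are 6.1% of the tested genes. The median log2 fold change of all tested genes was -0.02. The calls were unequal in size as well as in number. Of the higher genes, 742 were at least 2-fold, 531 at least 4-fold and 148 at least 32-fold higher, whereas only 4 of the lower genes reached 2-fold and none 4-fold. In 389 genes (2.27% of those tested) every library marked Yes lay above every library marked No, and 386 of these were among the higher calls. No gene had every library marked Yes below every library marked No.

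**Figure D1:**
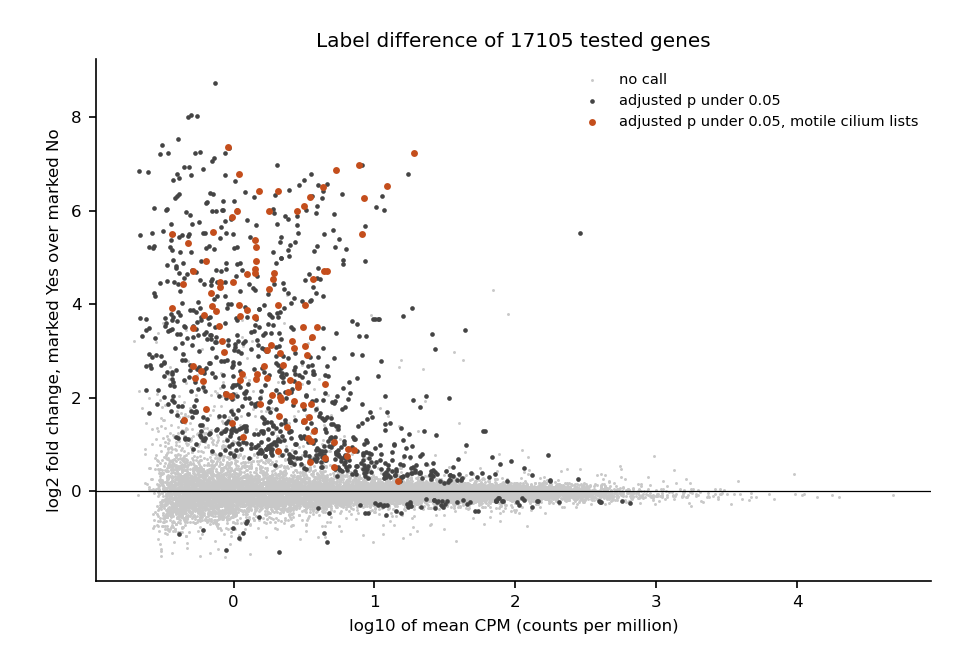
Each point is 1 of the 17105 tested genes, with its mean level (log10 of CPM) across and its log2 fold change of libraries marked Yes over marked No upwards. Genes with an adjusted p under 0.05 (edgeR) are dark, and those in the motile cilium lists are orange. The 975 higher genes reach log2 changes above 6, while the 69 lower genes lie close to 0 and reach -1.30.

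Among the marker lists, those of the motile cilium held the most higher genes. Of 130 genes listed for the multiciliated cell programme and the motile axoneme, 124 passed the filter, 108 were higher and none was lower (5.7% of all tested genes were higher). Their median log2 fold change was 2.93, against -0.02 over all tested genes, and in 71 of them the groups did not overlap (2.27% of all tested genes). Summed over the list, libraries marked Yes held 397.6 to 1127 CPM with a median of 586, and those marked No held 205.9 to 272.4 CPM with a median of 251.5. The summed levels did not overlap between the labels, and the highest were in Restricted 2 and Restricted 3 and the lowest marked Yes in Control 9. In bulk tissue, a larger number of ciliated cells and more RNA per ciliated cell cannot be told apart.

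Foxj1, the transcription factor that switches on the motile cilium programme, lies on chromosome 11 (chr11:116330704-116335399 on GRCm38, minus strand). Foxj1 was at 7.74 CPM in Control 9, 10.6 in Restricted 1, 15.6 in Control 2, 18.1 in Control 8, 18.5 in Control 5, 18.9 in Control 1, 24.3 in Control 4, 34.2 in Control 10, 46.9 in Restricted 3 and 48.9 in Restricted 2. Among libraries marked No it was at 1.60 CPM in Restricted 5, at 1.18 in Restricted 8, and at 0 to 0.159 CPM in the other 8. The groups did not overlap, and the lowest library marked Yes stood well above the highest marked No. The fitted difference was 6.52 ± 0.56 (log2 fold change ± SE, n = 10 and 10), a 92-fold higher level with an adjusted p of 2.24e-08 in edgeR's quasi-likelihood test. Within Control libraries alone the log2 difference of Foxj1 was 7.47 (edgeR, adjusted p = 5.34e-05), and within Restricted libraries alone it was 6.33 (adjusted p = 0.000183).

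Of 12 genes listed for the multiciliated cell programme, Foxj1 among them, 9 passed the filter and 6 were higher, beside 5.7% of all tested genes. Gmnc, which starts the multiciliated fate, was at 0.48 to 2.60 CPM in libraries marked Yes and at 0 to 0.215 CPM in those marked No. Trp73, which turns on Foxj1, rose by 4.47 ± 0.429 (log2, SE; edgeR, adjusted p = 8.86e-08), and Myb, active as cilia precursors multiply, rose by 2.43 ± 0.279 (adjusted p = 1.11e-06). Neither overlapped between the labels.

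The dynein arms, the motors of the axoneme, rose in 18 of 19 tested genes (beside 5.7% of all tested genes) with a median log2 fold change of 2.38. Dnah5, the heavy chain of the outer arm in cilia, was at 3.47 to 19.3 CPM with a median of 11.1 in libraries marked Yes. Among those marked No, Dnah5 was at 0.343 CPM in Restricted 5, at 0.646 CPM in Restricted 8 and at 0 in the other 8 libraries. The same pair of libraries thus held the traces of Foxj1 and of Dnah5. Dnah9 and Dnah11, further outer arm chains of cilia, rose by 4.72 ± 0.417 and 6.50 ± 0.552 (log2, SE; edgeR, adjusted p = 3.15e-08 and 1.95e-08).

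Structures that regulate the beat rose as well. Of 23 tested genes for the radial spokes, the central pair and the nexin-dynein complex, 20 were higher, with a median log2 fold change of 3.10. Rsph4a, a radial spoke head protein, was at 2.67 to 11.3 CPM in libraries marked Yes and at 0 to 0.287 CPM in those marked No. Hydin, a central pair protein, was at 2.51 to 15.2 and at 0.119 to 0.626 CPM. For neither gene did the groups overlap, and both lay highest in Restricted 2 or Restricted 3. Among 10 tested assembly factors, which fold dynein arms in the cytoplasm, 6 were higher, and of 63 further motile cilium genes 58 were. Intraflagellar transport and primary cilium genes, which most cells of the body use, were higher in 2 of 27 (Ift22 and Ttc26), or 7.41% beside 5.7% of all tested genes, and their median log2 fold change was 0.11.

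Paralogues that divide between cilia and sperm tails were read side by side. The list of 5 genes used in cilia (Dnah5, Dnah9, Dnah11, Rsph4a and Ccdc114) had 5 higher of 5 tested. Their median log2 fold change was 5.998, with the lowest, 0.75, in Ccdc114. Dnah5, Dnah11 and Rsph4a were at or below 0.724 CPM in every library marked No. They thus passed the filter mainly through libraries marked Yes, and the counts of the 2 lists are no fair comparison. The list of 5 genes used in sperm tails (Dnah8, Dnah17, Rsph6a, Ccdc63 and Tekt5) had 2 that passed the filter and none called. Of all tested genes 5.7% were higher, so no call among 2 genes says little. Dnah8, the sperm tail counterpart of Dnah5, was at 0.273 to 3.13 CPM in libraries marked Yes and at 0.277 to 2.29 CPM in those marked No, a difference of 0.37 ± 0.434 (log2, SE; edgeR, adjusted p = 0.764). Dnah17 differed by 0.15 ± 0.177 (adjusted p = 0.773). Both sperm tail genes overlapped between the labels, and Dnah8 was highest in Restricted 2 and, among those marked No, in Control 6.

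RFX factors, which work with Foxj1, bind the X-box, a short inverted repeat near the start of many cilium genes. Promoters from RefSeq (GRCm38.p6, 250 bases before to 50 after each start) were found for 88 of the 108 higher cilium genes, and 26 of these (29.5%) held, on either strand, the letters GTNNCC, 3 free bases and GNNAC, where N is any base. The same letters stood in 6.48% of 12160 tested genes with a promoter in the table and in 4.62% of all 32851 promoters of that length. Among higher genes outside the cilium lists the share was 13.9% of 639. In 14 genes the match lay wholly within the 100 bases before the start. These 100 bases are shown for the 6 of them with the largest fold change, 5′ to 3′ on the gene's strand and with the match in capitals, because they show what the matched letters look like in genes that rose together. Their closeness to the start follows from that choice. The match is read on the opposite strand in Cfap44 and Hydin, and Pifo holds 2.
Pifo, chr3:106001498-106001597, minus strand: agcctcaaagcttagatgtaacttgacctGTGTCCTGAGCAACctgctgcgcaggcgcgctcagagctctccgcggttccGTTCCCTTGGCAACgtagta
Cfap44, chr16:44394699-44394798, plus strand: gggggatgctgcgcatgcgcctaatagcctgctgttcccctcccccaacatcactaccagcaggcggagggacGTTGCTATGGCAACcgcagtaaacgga
Cfap206, chr4:34730207-34730306, minus strand: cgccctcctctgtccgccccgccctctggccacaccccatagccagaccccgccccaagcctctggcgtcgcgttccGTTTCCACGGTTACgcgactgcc
Hydin, chr8:110266877-110266976, plus strand: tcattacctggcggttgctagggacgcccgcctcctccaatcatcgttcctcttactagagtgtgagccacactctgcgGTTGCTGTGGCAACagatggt
Lrriq1, chr10:103236323-103236422, minus strand: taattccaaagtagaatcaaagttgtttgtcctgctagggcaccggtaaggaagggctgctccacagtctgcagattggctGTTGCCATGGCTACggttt
Tekt1, chr11:72361883-72361982, minus strand: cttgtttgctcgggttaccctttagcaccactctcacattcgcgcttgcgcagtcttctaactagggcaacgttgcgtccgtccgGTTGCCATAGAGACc
A match is a description of letters, not of binding. With fewer free positions (GTTNCC, 2 free bases and GGNAAC) the shares were 2.27% of the cilium genes and 0.633% of the tested genes. The log2 fold changes of the genes shown ran from 3.06 for Tekt1, a microtubule lining protein, to 7.35 for Pifo, which acts at the base of the cilium and had 2 counts over all libraries marked No, so that its fitted value depends on the prior count.

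The absorptive epithelium formed the next group. Of 25 listed genes 24 passed the filter, 14 were higher and 1 (Anpep) was lower, against 5.7% and 0.403% of all tested genes, and the median log2 fold change was 1.47. Slc9a3, the sodium-proton exchanger of the brush border that drives fluid uptake, was at 2.35 to 17.2 CPM with a median of 8.74 in libraries marked Yes. In libraries marked No, Slc9a3 was at 0 to 0.359 CPM, highest in Restricted 8. The groups did not overlap, and the fitted difference of Slc9a3 was 6.56 ± 0.503 (log2, SE; edgeR, adjusted p = 6.15e-09). Cldn2, a claudin that lets cations and water pass between cells, was at 6.67 to 41.5 CPM in libraries marked Yes, and at 1.72 CPM in Restricted 5, 1.29 in Restricted 8 and 0 to 0.16 CPM in the other 8 libraries marked No. Cdh16, a cadherin of kidney and duct epithelium, was at 7.31 to 38.3 CPM, and among those marked No at 2.06 in Restricted 5, 1.51 in Restricted 8 and 0 to 0.373 in the other 8. These 3 genes were thus highest, among libraries marked No, in one of the pair that held the traces of Foxj1. Other higher members peaked elsewhere among libraries marked No, such as Prom1 (6.18 CPM) and Ehf (1.71 CPM) in Control 6 and Slc26a3 (0.28 CPM) in Control 3.

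Lrp2, the endocytic receptor megalin, rose by 2.0 ± 0.288 (log2, SE; edgeR, adjusted p = 2.62e-05), from 4.57 to 28.3 CPM in libraries marked No to 30.5 to 76.1 CPM in those marked Yes. It was present in every library marked No, but the groups did not overlap. Several members at similar levels under both labels did not pass the test. The water channel gene Aqp1 differed by 0.07 ± 0.0921 (edgeR, adjusted p = 0.8) at 346.6 to 603.1 and 313 to 581.2 CPM. Esr1, the estrogen receptor that efferent ducts need to absorb fluid, differed by 0.27 ± 0.156 (adjusted p = 0.45). Cubn, the partner of megalin, stayed at 0.488 to 1.24 and 0.572 to 1.36 CPM and differed by -0.15 ± 0.22 (adjusted p = 0.818). Anpep, an aminopeptidase of brush borders and of other cells, fell by 0.27 on the log2 scale (edgeR, adjusted p = 0.024) with overlapping groups.

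Of 9 tested transcription factors listed for the embryonic (Wolffian) duct, 5 were higher (beside 5.7% of all tested genes), among them Lhx1, Pax8, Pax2 and Emx2. Lhx1 was at 0.533 to 2.02 CPM in libraries marked Yes and had no count in any library marked No. Measured against 3 counts over all libraries marked No, it was at least 81.6-fold higher. Pax8 rose by 5.02 ± 0.626 (log2, SE; edgeR, adjusted p = 3.58e-06) without overlap. Pax2 rose by 4.53 ± 0.753 (adjusted p = 0.000167) with overlap: it was at 4.26 CPM in Control 1 and at 0.107 CPM in Control 9, and among libraries marked No it was highest, at 0.426 CPM, in Control 6. Within Control libraries alone, Pax2 did not pass the test (log2 3.25, edgeR, adjusted p = 0.222). Pan-epithelial genes rose in 15 of 20 tested members. Epcam, an adhesion molecule of epithelia, was at 4.47 to 21.6 CPM against 0 to 1.01 CPM, with Control 6 highest among those marked No.

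**Figure D2:**
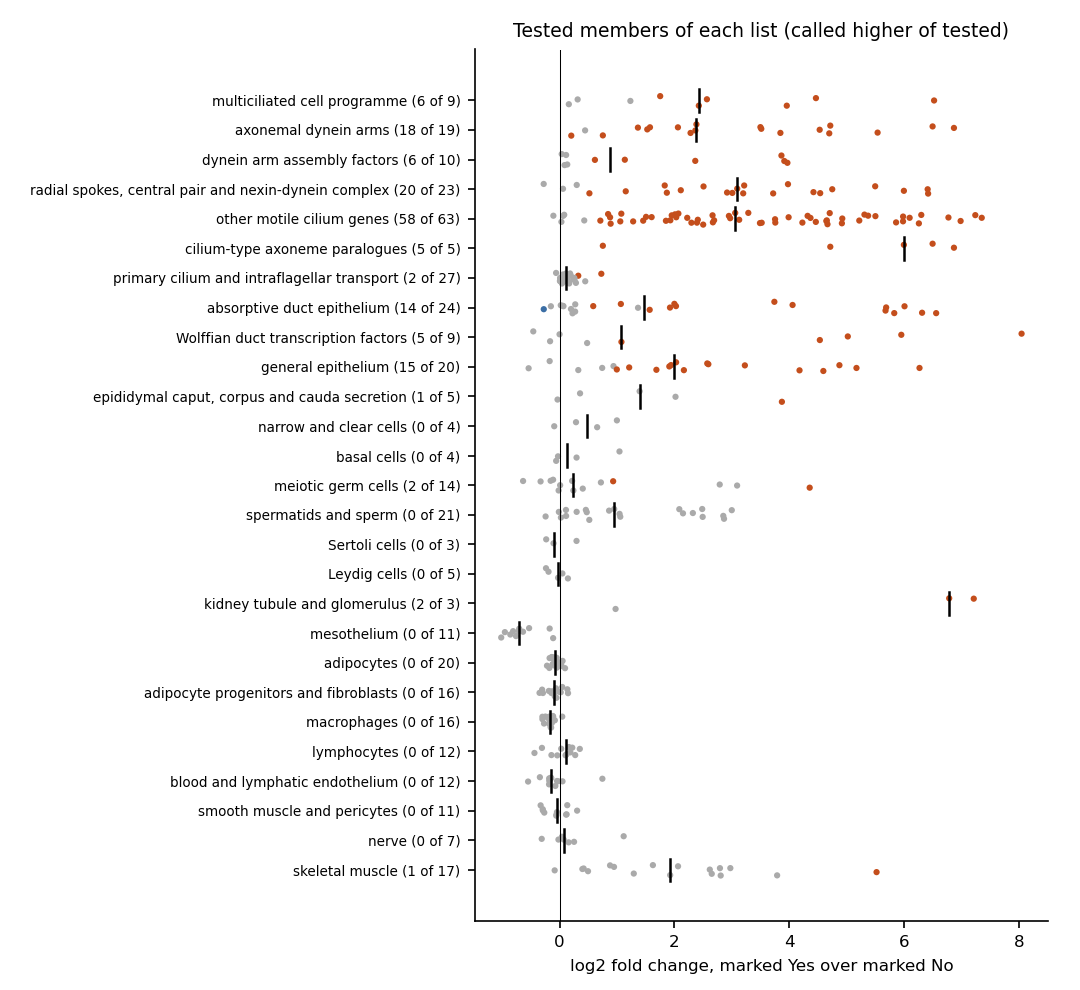
Each point is 1 tested gene of a marker list (rows; lists with at least 3 tested genes), placed by its log2 fold change of libraries marked Yes over marked No. Orange genes were higher and the blue gene lower at an adjusted p under 0.05 (edgeR), grey genes were not called, and the black bar is the list's median. Motile cilium, duct epithelium and general epithelium lists spread to the right. So do the lists of kidney (median 6.79, 2 of 3 called) and skeletal muscle (1.93, 1 of 17 called). Those of epididymal caput, corpus and cauda (1.395, 1 of 5 called) and of spermatids and sperm (0.95, 0 of 21 called) also lie to the right. Adipocyte, progenitor, macrophage, lymphocyte and endothelial lists lie near 0, and mesothelium lies below 0 (median -0.71, none called).

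Outside the fixed lists, 824 further genes were higher, and their groups described here were chosen after their values were seen. All 6 genes of the intermicrovillar adhesion complex, which ties the tips of brush border microvilli together, were higher, with a median log2 fold change of 4.14 (5.7% of all tested genes were higher). Cdhr5, one of its cadherins, was at 2.24 to 20.7 CPM against 0 to 0.646 CPM, and Ush1c, its scaffold, at 1.71 to 9.87 against 0 to 0.251 CPM. Both genes separated the labels without overlap. Of 5 tested genes of the microvillus core 3 were higher (Vil1, Pls1 and Espn), while Ezr and Eps8 were not called (edgeR, adjusted p = 0.354 and 0.674). Hnf4a, a transcription factor which drives genes of absorptive epithelia, was at 4.22 to 22.2 CPM in libraries marked Yes and at 0 to 0.419 CPM in those marked No, and had the smallest p of all tested genes (log2 6.36 ± 0.381, edgeR, adjusted p = 9.12e-10).

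Carriers and metabolic genes accompanied them. Of 6 tested amino acid carriers of absorptive epithelia, 4 were higher (Slc6a19, Slc6a20a, Slc7a9 and Slc7a7). Slc7a9, the cystine carrier, was at 2.40 to 15.5 against 0 to 0.259 CPM, whereas Slc7a7 rose by only 0.31 (log2; edgeR, adjusted p = 0.0381) with overlapping groups. Dao, which breaks down D-amino acids, was at 4.59 to 28.7 CPM against 0 to 0.762 CPM. Fbp1 and Pklr, sugar-handling enzymes of liver and kidney tubules, rose by 5.32 ± 0.553 and 6.55 ± 0.638 (log2, SE; edgeR, adjusted p = 2.64e-07 and 1.05e-07), both without overlap between the labels. The sugar enzyme Pck1, abundant in fat cells, differed by -0.28 and was not called. By symbol, 25 of 30 tested Cfap genes (cilia and flagella associated proteins), 10 of 14 Dnah genes and 37 of 275 solute carriers of the Slc family were higher, beside 5.7% of all tested genes. Of the Hox genes, which record position along the body axis, 4 of 8 in the Hoxb cluster were higher (Hoxb6, Hoxb7, Hoxb8 and Hoxb9) and none of 8 in the Hoxa cluster. In the Hoxd cluster 1 of 4 was higher (Hoxd8), and in the Hoxc cluster none of 5 was higher and 1 was lower. Hoxb9 rose the most of these, by 2.06 ± 0.276 (log2, SE; edgeR, adjusted p = 9.85e-06), with 1.92 to 9.51 CPM in libraries marked Yes and 0.435 to 1.95 CPM in those marked No, which overlapped narrowly.

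The 5 genes named next were among those with the largest fitted changes that lay in no list. Cyp2d9, a cytochrome of liver and kidney, and Kif12, a kinesin of tubule cells, had no count in any library marked No and were at least 118-fold and 90.5-fold higher. Igfbp1, a binding protein of insulin-like growth factors, Dio1, the deiodinase that activates thyroid hormone, and Ghrhr, the receptor for growth hormone releasing hormone, had 1 or 2 counts over all libraries marked No and 276, 252 and 409 counts over those marked Yes. Groups of all 5 genes did not overlap (2.27% of all tested genes). That follows in part from their choice as the largest changes, with almost no counts in libraries marked No.

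Kidney tubules share many of these genes, so a list of kidney markers was read beside them. Of 12 kidney genes 3 passed the filter and 2 were higher, Umod and Slc34a1, beside 5.7% of all tested genes. Over all libraries marked Yes these 2 had 183 and 138 counts, and over those marked No 1 and 0. They thus passed the filter only through libraries marked Yes, and their share among the tested kidney genes is no measure of kidney transcripts. The median log2 fold change of the 3 was 6.79, a fitted value that depends on the prior count, since it is that of Umod, with 1 count over all libraries marked No. Umod, the main protein of normal urine, was at 0 to 2.13 CPM in libraries marked Yes and at 0 to 0.0359 CPM in those marked No. Slc34a1, a phosphate carrier, was at 0.213 to 1.25 CPM and had no count in libraries marked No. Slc12a1 and Kap, strong markers of kidney tubules, had no count in any library. For other multiciliated tissues (airway, oviduct and brain ependyma), 1 of 10 marker genes passed the filter, none was called, and the list summed to 0.933 to 2.84 CPM in libraries marked Yes and 0.533 to 2.26 CPM in those marked No.

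Epididymal genes followed another pattern. Of 59 listed secretory genes of the epididymis 6 passed the filter and 1 was higher (16.7%, beside 5.7% of all tested genes). It was Defb29, an epididymal defensin, which rose by 3.87 ± 0.741 (log2, SE; edgeR, adjusted p = 0.000887) at 0.0534 to 2.02 against 0 to 0.426 CPM. The summed level was at 868.4 CPM in Control 1 (marked Yes), 184.1 CPM in Control 6 (marked No) and 30.4 CPM in Control 10 (marked Yes), and at 2.50 to 11.4 CPM in the other 17 libraries. Thus 1 library of each label held most of the epididymal signal. Crisp1, a sperm-coating protein of the epididymis, was at 255.4 CPM in Control 1, 37.2 in Control 6 and 5.16 in Control 10, and below 1 CPM elsewhere.

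Single genes ranked differently in those libraries. Gpx5, a glutathione peroxidase secreted by the caput, the head of the epididymis, was at 5.92 CPM in Control 6 and had no count in any other library. Lcn5 and Lcn8, lipocalins of the proximal epididymis, were at 10.8 and 4.42 CPM in Control 6, whereas Control 1 had no count of either. Members of the initial segment list were split between these libraries. Rnase9 and Rnase12 were higher in Control 1, at 15.3 and 14.7 CPM against 6.45 and 3.20 CPM in Control 6, as were Lcn12 and Rnase11 at lower levels. All other members were higher in Control 6, among them Rnase10 (2.4 against 0.508 CPM) and Adam28 (1.33 against 0 CPM). Adam7, a membrane protein secreted along the duct, was at 89.1 CPM in Control 1 and 16.9 in Control 6. Foxj1 was at 0.0533 CPM in Control 6, so the library marked No with the most epididymal transcripts held little Foxj1. Without Control 1, Control 6 and Restricted 2, a choice made after seeing the data, 101 motile cilium genes were higher, all 101 among the 108.

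Markers of the named germ cells were next. Of 43 genes of meiotic germ cells, which include spermatocytes, 14 passed the filter, 2 were higher (14.3%, beside 5.7% of all tested genes) and none was lower, with a median log2 fold change of 0.23. Sycp1, a core protein of the synaptonemal complex that joins chromosomes in spermatocytes, had no count in any library marked No and reached 0.0445 CPM in Control 2 and 0.0887 CPM in Control 4, both marked Yes. Sycp3, its partner, was at 1.36 to 11.01 CPM in libraries marked Yes and at 2.46 to 6.13 CPM in those marked No, and differed by 0.01 ± 0.248 (log2, SE; edgeR, adjusted p = 0.992). The higher pair were Rec8, a meiotic cohesin, and Msh5, a crossover protein. Rec8 was at 2.77 to 15.2 CPM in libraries marked Yes and at 0.0447 to 1.15 CPM in those marked No, with no overlap and the highest value marked No in Restricted 8. Msh5 rose by 0.93 ± 0.203 (edgeR, adjusted p = 0.00344) with overlapping groups.

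Ldhc, the lactate dehydrogenase of spermatocytes and sperm, was at or above 1 CPM in 4 libraries marked Yes (12.04 in Restricted 2, 4.27 in Control 2, 2.34 in Control 10 and 1.28 in Control 9) and in 1 marked No (1.97 in Control 6). It was at 0 to 0.66 CPM in all other libraries. Its fitted difference of 3.09 ± 1.15 (log2, SE) did not pass the test (edgeR, adjusted p = 0.151). Without Control 6 it did, at 4.96 (adjusted p = 0.0158), and 4 meiotic genes were then higher (Ldhc, Msh5, Pgk2 and Rec8).

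Of 39 genes of spermatids and sperm 21 passed the filter and none was called in either direction, beside 5.7% and 0.403% of all tested genes. Their median log2 fold change was 0.95. Prm2, a protamine that packs DNA in the sperm head, was at 61.5 CPM in Restricted 2, 11.6 in Control 2, 5.92 in Control 10, 4.59 in Control 9 and 3.91 in Control 1, and at 0.0983 to 0.443 CPM in the other 5 libraries marked Yes. Among those marked No it was at 12.3 CPM in Control 6, 2.35 in Control 7 and 0 to 0.114 CPM in the other 8. Prm2 was thus above 1 CPM in 5 libraries marked Yes and in 2 marked No, and the groups overlapped (log2 2.87 ± 1.30, edgeR, adjusted p = 0.292).

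This result turned on single libraries of both labels. Without Restricted 2 the log2 difference of Prm2 was -0.11. Without Control 6, 8 genes of the spermatid list were higher (Akap4, Crisp2, Dkkl1, Gsg1, Oaz3, Odf1, Prm2 and Smcp). With a muscle index as a term in the fit, 7 were, among them Prm2 at 5.18 (edgeR, adjusted p = 0.0223). Within Control libraries alone Prm2 differed by -0.40 (edgeR, adjusted p = 0.955). For other cells of the testis, 3 of 10 listed Sertoli cell genes and 5 of 9 listed Leydig cell genes were tested, and none was called. With 6.1% of all tested genes called, no call among so few genes says little about these cells. Insl3, the hormone of Leydig cells, was at 0.295 to 1.69 CPM in libraries marked Yes and at 0.267 to 1.90 CPM in those marked No. Of the spermatogonial genes 2 of 12 passed the filter and 1 was higher, Gfra1, a receptor for GDNF that nerves and kidney also use.

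**Figure D3:**
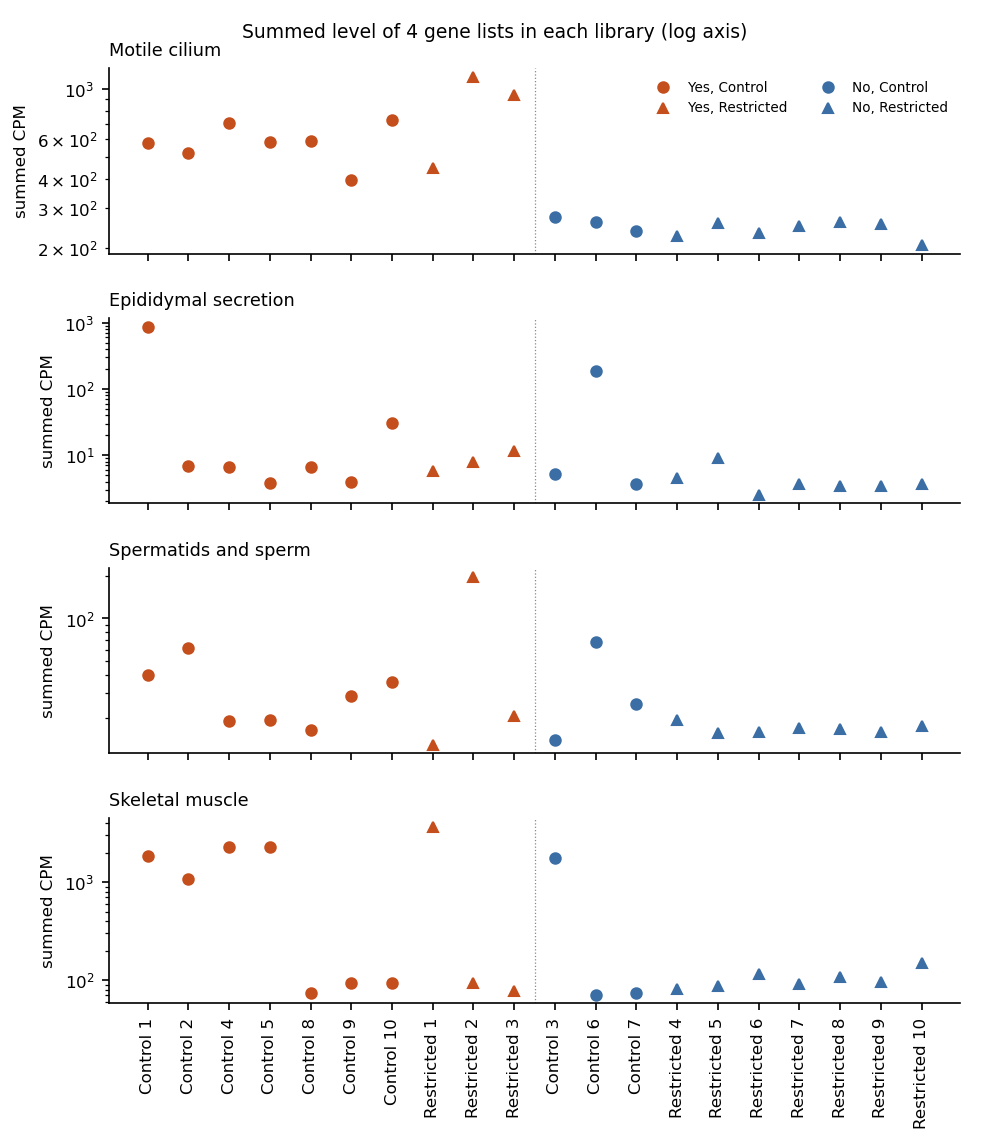
Each point is 1 library, and the vertical axis (log scale) is the summed CPM of a gene list, with 1 panel each for motile cilium, epididymal secretion, spermatids and sperm, and skeletal muscle. Orange is marked Yes and blue marked No, circles are Control and triangles Restricted. The labels separate in the cilium panel (397.6 CPM and above against 272.4 and below), while single libraries of either label stand out in the epididymal and sperm panels and 6 libraries in the muscle panel.

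Within the libraries marked Yes, the absorptive genes Slc9a3 and Hnf4a kept a narrow ratio to Foxj1, and the sperm gene Prm2 did not. The ratio of Slc9a3 to Foxj1 CPM ran from 0.244 in Control 4 to 0.545 in Control 8, a 2.23-fold range over 10 libraries, and that of Hnf4a to Foxj1 from 0.383 to 0.694, a 1.81-fold range. Rec8 to Foxj1 ran from 0.181 to 0.446 (2.47-fold), and Pax8 to Foxj1 from 0.123 to 0.484 (3.92-fold), highest in Control 1. By contrast, Prm2 to Foxj1 ran from 0.0035 in Restricted 3 to 1.26 in Restricted 2, a 360.0-fold range. These ratios share the library and its depth and are given as a description. Rec8, listed as meiotic, thus kept a range close to that of Slc9a3 and Hnf4a, and Prm2 did not. Not every duct gene was so even. Pax2 was at 4.26 CPM in Control 1 and 0.107 CPM in Control 9, where Foxj1 was at 18.9 and 7.74 CPM.

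**Figure D4:**
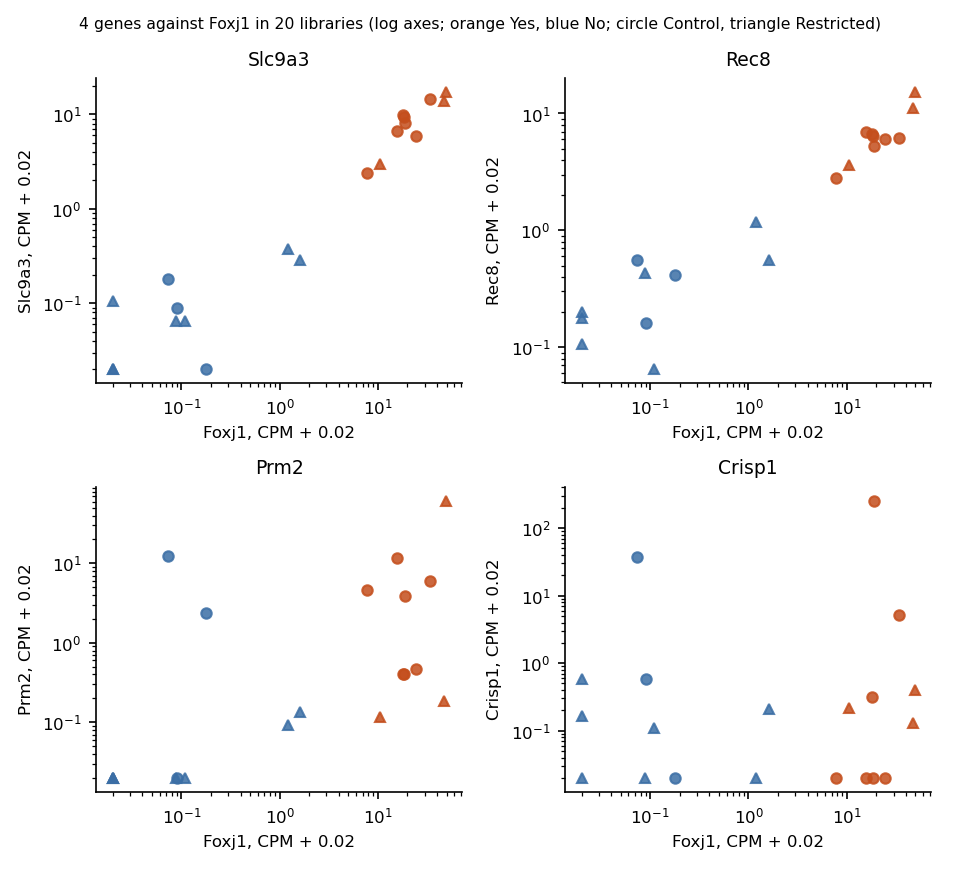
Each point is 1 of the 20 libraries, with Foxj1 across and Slc9a3, Rec8, Prm2 or Crisp1 upwards, in CPM plus 0.02 on log axes. Orange is marked Yes and blue marked No, circles are Control and triangles Restricted. Slc9a3 and Rec8 lie along a band with Foxj1, while Prm2 and Crisp1 are high in single libraries of either label, such as Control 6 (blue) at 12.3 and 37.2 CPM.

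The resident cells of the fat pad differed little by label. None of 20 adipocyte genes, 16 progenitor and fibroblast genes, 16 macrophage genes, 12 lymphocyte genes and 12 endothelial genes was called, and their list medians lay between -0.16 and 0.11 on the log2 scale. Of all tested genes 6.1% were called. The 11 genes of mesothelium, the cell sheet that covers the fat pad, all lay below 0 with a median of -0.71, and none was called. Upk3b, a mesothelial membrane protein, differed by -0.76 ± 0.345 (log2, SE; edgeR, adjusted p = 0.291) at 37.2 to 210.9 against 69.9 to 271.6 CPM. Of 17 skeletal muscle genes 1 was higher (5.88%, beside 5.7% of all tested genes). It was Ttn, the giant spring protein of muscle, higher by 5.52 ± 1.55 (edgeR, adjusted p = 0.0324). Summed muscle transcripts stood at 1085 to 3685 CPM in the 6 libraries named above and at 70.99 to 149.1 CPM in the other 14. With those 6 left out, 963 genes were higher, 854 of them among the 975, and 109 motile cilium genes were higher, 107 of them among the 108.

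The lower genes were few and their changes small, with a median log2 fold change of -0.29. Isl1, a homeobox factor, fell by 1.30 on the log2 scale (edgeR, adjusted p = 0.0153), from 1.23 to 5.802 CPM in libraries marked No to 0.547 to 3.04 in those marked Yes. Ptgs2, which makes prostaglandins, fell by 1.26 (adjusted p = 0.0385), at 0.431 to 2.87 and 0.213 to 1.36 CPM. Both overlapped between the labels. The count of lower genes was 24 without Control 3 and 25 without Restricted 2, and 13 with plain library totals in place of TMM factors, a scaling that corrects for differences in RNA makeup.

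Most higher calls made within a diet were also made over both diets, which in part follows from the libraries they share. Of the 975 higher genes, 53.5% were called in Control alone and 68.1% in Restricted alone. In Control libraries alone (7 marked Yes and 3 marked No) 538 genes were higher, 522 of them among the 975, and 85 of the 108 motile cilium genes passed the test. In Restricted libraries alone (3 and 7) 713 were higher, 664 of them among the 975, and 95 of the 108. Of the lower calls, 1 of 25 in Control alone and 10 of 30 in Restricted alone were among the 69. A product of label and diet was called in 0 of 17813 genes by edgeR (0%), where 1105 had an unadjusted p under 0.05 and DESeq2 called 4. Summed motile cilium levels in libraries marked Yes were at 397.6 to 732.1 CPM in Control and at 447.3, 942.5 and 1127 CPM in the 3 Restricted libraries.

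As a share of each library the excess was small. In 487 genes that were at least 4-fold higher both in all libraries and without the 6 that held muscle transcripts, libraries marked Yes held 0.0792% to 0.355% of their counts with a median of 0.186%, and those marked No held 0.0119% to 0.0268%. These genes were chosen on the same libraries, so the shares are a description.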

How the data were processed

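The authors deposited raw counts for 55401 genes in 20 libraries, as whole numbers. Per the submitters' processing notes, the build was GRCm38 and the tools included Salmon, STAR and bcl2fastq 4.0.3, with no order. Which tool counted, with which annotation and strand setting, is not given in the sources used here, so reads of overlapping genes on opposite strands and of near-identical copies cannot be told apart. Groups came from the contamination label. Counts were fitted with edgeR 4.0.16 in R 4.3.3 (filterByExpr with a minimum count of 10, TMM factors, label and diet as terms, quasi-likelihood test, two-sided, Benjamini-Hochberg adjustment at 0.05), after the code was tested on simulated data. The tested genes held at least 99.722% of each library's counts. The 32 gene lists (566 names, with older symbols matched through RefSeq), the comparison and the named genes were chosen with earlier results of these data known. Named were a set of marker genes, from each list the 4 tested members of smallest p, the 12 largest changes each way among called genes averaging 1 CPM or more under either label, and the 8 largest outside the lists. Other genes named were chosen after their values were seen. CPM uses plain library totals, and a ± after a log2 value is the SE. At these depths 1 CPM is 14 to 44 counts, and counting error is large below it. Equal library numbers did not pair Control and Restricted libraries. Promoters came from RefSeq (GRCm38.p6). DESeq2, limma-voom, other scalings, filters, terms and subsets were tried as alternatives. Some genes are not reported here.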

Additional observations from a re-analysis of the deposited data

Results flagged for a closer look

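Within the 10 libraries of each label, the single highest or lowest library was compared with the spread of the others for 132 sets of values (list sums and single genes). It stood apart in 50. Chance flags about 1 in 20 such sets where values are normally distributed, but many of these are close to 0 or overlap each other, so that share is no measure for them. All values here are CPM, and their causes were not tested.

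Control 6, marked No, stood apart in 19 sets, each time as the highest of its label. Its epididymal genes summed to 184 (21.4 for the initial segment, the first stretch of the duct, and 163 for the caput, corpus and cauda), with Crisp1 at 37.2, Adam7 at 16.9, Lcn5 at 10.8, Gpx5 at 5.92 and Lcn8 at 4.42. Its spermatid and sperm genes summed to 68.8, with Prm2 at 12.3, Prm1 at 6.71, the transition proteins Tnp1 at 4.26 and Tnp2 at 6.13, and the sperm tail anchor Akap4 at 2.45. Sperm tail paralogues summed to 5.86 there, with Dnah8 at 2.29 and Rsph6a at 0.373, while Ldhc was at 1.97 and Pax2 at 0.426.

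Control 1, marked Yes, was the highest of its label for the epididymal sum (868, of which 33.9 in the initial segment and 834 in the other segments), for Crisp1 (255), Adam7 (89.1) and Pax2 (4.26). Restricted 2, marked Yes, was the highest for meiotic genes (116), spermatid and sperm genes (198), Prm2 (61.5), Ldhc (12), Akap4 (9.34), Prm1 (6.17), Tnp2 (5.01), Tnp1 (2.84) and Rsph6a (1.11). The libraries marked Yes with the most epididymal and the most sperm transcripts were thus different ones, while Control 6 led its label in both.

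Among libraries marked Yes, Restricted 1 had the highest adipocyte sum (162000) and Sycp3 (11) and the lowest sums for progenitors and fibroblasts (12400) and for the primary cilium (475). Among libraries marked No, Control 3 had the highest muscle sum (1780), the highest level of the muscle creatine kinase Ckm (129) and the highest sum (3.56) for genes of the vas deferens, seminal vesicle and prostate. That last sum was highest among libraries marked Yes in Control 8 (10.4). Control 10 led libraries marked Yes for Sertoli cell genes (6.95) and Lcn8 (0.128), Restricted 3 for Lcn5 (1.15) and Control 4 for Sycp1 (0.0887).

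Among libraries marked No, the cilium genes Dnah11 (0.724) and Dnah9 (1.22) were highest in Restricted 5, and Dnah5 (0.646) and Insl3 (1.90) in Restricted 8.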

How the results depend on the processing

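The number of higher genes was 590 with a filter of at least 1 CPM in 10 libraries, which tests fewer low genes, 635 with a replicate block, 538 in Control libraries alone and 864 to 1098 when 1 library was left out. Motile cilium genes called higher were 66 with that filter and 105 to 110 with 1 library left out. The number of lower genes moved most: 36 with upper-quartile factors, 13 with plain library totals, 25 with the 1 CPM filter, 153 with limma-voom, 112 with the replicate block, 25 in Control and 30 in Restricted libraries alone, and 24 to 87 with 1 library left out. Equal library numbers did not pair the libraries (correlations of -0.116 to 0.126 over 10 pairs, with 1 over 0.1 and 0 Control libraries correlating best with their own number), so the replicate block is given here only. DESeq2 called 4 genes for the product of label and diet. Epididymal genes called higher were 0 with the 1 CPM filter, without the diet term, with the replicate block and in Control libraries alone, 2 with limma-voom, 2 without Control 1, Control 6 and Restricted 2 (a choice made after seeing the data), and 1 to 2 with 1 library left out. Meiotic genes called higher were 1 with the replicate block, with RNA integrity as a term (17 libraries), in Control alone, in Restricted alone and without those 3 libraries, 5 with the muscle index, and 2 to 4 with 1 library left out. Spermatid and sperm genes called higher were 2 without a filter on low counts, 7 with the muscle index and 0 to 8 with 1 library left out, and absorptive genes were 14 to 16. Of all alternative counts, 240 stayed within 1.5 times and 37 did not. A count of 0 in both settings was taken as within, and fits with 1 library left out share the other libraries. That tally is therefore no measure of stability.

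Single genes changed sign only where no call had been made. DESeq2 gave -1.69 for Crisp1 and -0.89 for Adam7 (log2). The muscle index gave -1.30 for Crisp1, -1.51 for Adam7 and -0.24 for Sycp3. RNA integrity as a term gave -0.29 for Dnah8, -0.0813 for Adam7, -1.44 for Prm1, -0.51 for Prm2, -2.15 for Tnp1, -1.78 for Tnp2 and -1.15 for Akap4. Control libraries alone gave -0.39 for Dnah8, -0.0829 for Dnah17, -0.55 for Sycp3, -1.79 for Prm1, -0.40 for Prm2, -2.12 for Tnp1, -1.94 for Tnp2, -0.78 for Akap4 and -0.19 for Insl3. Without the 6 muscle-bearing libraries Cubn was at 0.0637, Adam7 at -2.74 and Sycp3 at -0.44. Without Control 1, Control 6 and Restricted 2, Dnah8 was at -0.15, Prm1 at -0.16 and Tnp1 at -0.77. With 1 library left out, the lowest and highest values were -2.55 and 1.62 for Adam7, -0.75 and 4.27 for Akap4, -0.0101 and 0.26 for Dnah17, -0.42 and 0.77 for Dnah8, -0.19 and 0.22 for Insl3, -1.79 and 2.60 for Prm1, -0.11 and 4.85 for Prm2, -0.45 and 0.13 for Sycp3, -2.09 and 1.82 for Tnp1, and -1.77 and 2.60 for Tnp2. The lowest came without Restricted 2, except without Control 1 for Adam7, Restricted 3 for Insl3 and Restricted 1 for Sycp3. The causes were not tested.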
